A study of Homo sapiens with 12 samples.

Results

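The transcriptome of HEK293T cells expressing the gain-of-function (GOF) EZH2 Y641F was set against that of HEK293T cells expressing the loss-of-function (LOF) double mutant EZH2 H689A/F667I, a pair of lines in which the EZH2 transcript was at a similar level. The comparison used the 6 libraries labelled EZH2 Y641F replicates 1 to 3 and EZH2 H689A/F667I replicates 1 to 3, of 12 RNA-Seq libraries in the series, which also holds 3 of EZH2 WT and 3 of EZH2 A677G, the other GOF mutant. HEK293T is a human embryonic kidney cell line. By the methods, each line was made by lentiviral infection with an EZH2 construct, followed by blasticidin selection that was meant to give monoclonal populations, and no deletion of the cells' own EZH2 gene is described, so the EZH2 counts cover the transgene and the endogenous gene together. Each mutant was represented by 1 line, so the mutation and other properties of a line cannot be told apart. The study calls its replicates biological, but neither the labels nor the methods say whether the RNA came from separate cultures of a line, and p-values therefore measure only the spread between these samples.

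EZH2 is the catalytic subunit of Polycomb repressive complex 2 (PRC2), which methylates lysine K27 of histone H3, a mark of silenced developmental genes. EED and SUZ12 are core partners without which the enzyme is inactive, EZH1 is an alternative catalytic subunit, and accessory subunits steer the complex to CpG-rich promoters. Y641F and A677G alter the catalytic SET domain so that the mark spreads or deepens and are recurrent in lymphoma, whereas H689A and F667I lie in the same domain and impair catalysis.

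Library totals were between 32137700 and 41628613 counts for the 6 libraries. Genes at 0 in all 3 replicates of any line were left out (175 of 14438), which left 14263 genes for the test. Of the 175, 100 were at 0 in every LOF library and 0 were at 0 in every Y641F library. No gene was at 0 in exactly 2 of the 3 LOF replicates, and the 100 genes had mean counts between 9 and 32.7 in Y641F, so these zeros do not follow the spread of the other low counts. By correlation, EZH2 Y641F replicate 1 stood apart from its group. Its deviations from the mean of all libraries correlated with those of replicates 2 and 3 at r = 0.039 and 0.0672 across genes, against 0.246 between replicates 2 and 3 and 0.217 to 0.317 within the other lines. By a chi-square per gene between the counts of 2 libraries, however, Y641F replicates 2 and 3 differed most, at 14.74. The pairs with replicate 1 were at 10.87 and 10.25, and pairs within the other lines at 3.328 to 7.073. All Y641F replicates thus differed more among themselves by this measure. Each count that follows is therefore also given, where it moves by more than 1.5 times, without the library concerned. Of the embryonic kidney and HEK293T markers, 13 of 14 were in the table (PAX8 was not), and they summed to 680 to 716 CPM (counts per 1e+06 counts of a library, with TMM scaling) in Y641F and to 754 to 762 in the LOF mutant. Much of that gap lies in the neurofilament genes NEFL and NEFM. Their means were 79.0 and 126 CPM in Y641F and 115 and 145 CPM in the LOF mutant. The leukocyte markers PTPRC, CD3E, CD79A, LYZ and TYROBP, the endothelial markers PECAM1, CDH5, VWF and TEK and the kidney epithelium markers UMOD, AQP2 and NPHS1 were not in the table. The ribosomal RNA precursor RNA45S5 was at 503, 656 and 494 CPM in Y641F and at 458, 447 and 315 CPM in the LOF mutant.

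EZH2 itself, on the minus strand at chr7:148807257-148884321 (GRCh38, GENCODE), was at 228, 209 and 217 CPM in Y641F replicates 1 to 3 and at 208, 210.1 and 206 CPM in the LOF replicates. The groups overlapped. The means were 218 ± 9.61 and 208 ± 2.03 CPM (SD, n = 3 each), a log2 difference of 0.0665 ± 0.0395 (SE) with a 95% confidence interval of -0.0136 to 0.147 (adjusted p = 0.357, edgeR). The interval leaves room for a difference in either direction at this precision, and the means of EZH2 WT and A677G were lower than either, at 158 and 173 CPM. The other core transcripts did not pass the test. EZH1 was at 19.3, 17.3 and 15.4 CPM in Y641F and 13.9, 15.6 and 14.7 CPM in the LOF mutant (log2 difference 0.23 ± 0.0848 SE, adjusted p = 0.0834), and it passed only when Y641F replicate 3 was left out (adjusted p = 0.0269). EED differed by 0.0284 ± 0.0545 (SE) and SUZ12 by 0.0976 ± 0.0491 (SE) on the log2 scale, both with overlapping replicates.

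**Figure D1:**
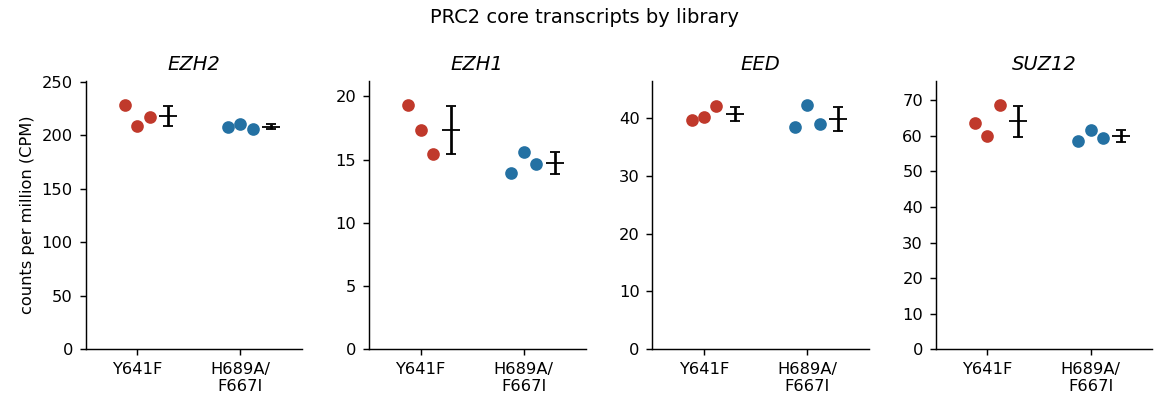
TMM-scaled CPM (linear axes from 0) of EZH2, EZH1, EED and SUZ12 in each Y641F library (red) and each H689A/F667I library (blue), with the mean and SD of 3 replicates as a black bar. EZH2 sits near 210 CPM in both lines, and the replicates of the lines overlap in all 4 panels.

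Against this similar EZH2 level, 917 genes had a lower and 355 a higher level in EZH2 Y641F, 6.43% and 2.49% of the 14263 genes tested (edgeR's quasi-likelihood test, Benjamini-Hochberg adjusted p under 0.05, all 12 libraries in the fit). Lower genes thus made up 72.1% of the 1272 genes called. Among the genes tested, the called decreases were larger than the called increases. The median log2 difference of the lower genes was -0.55 and that of the higher genes 0.20, while the median over all genes tested was 0.00188, and 181 lower genes but 7 higher genes changed by at least 1 on the log2 scale. The filter left out the 100 genes at 0 in every LOF library and 0 genes at 0 in every Y641F library, so that large increases from 0 are not among these counts. With no filter 939 genes were lower and 474 higher (66.5% lower), and with each library's GC trend removed 1047 and 223 (82.4% lower). The lower genes were also less abundant, with a median of 3.06 mean log2 CPM, against 5.67 for the higher genes and 4.61 for all genes. The replicates of the lines did not overlap at 876 of the lower and 321 of the higher genes. Over all genes tested, called or not, Y641F was lower without overlap at 1737 and higher without overlap at 1388 genes. In these bulk libraries fewer cells expressing a gene and less RNA per cell cannot be told apart.

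**Figure D2:**
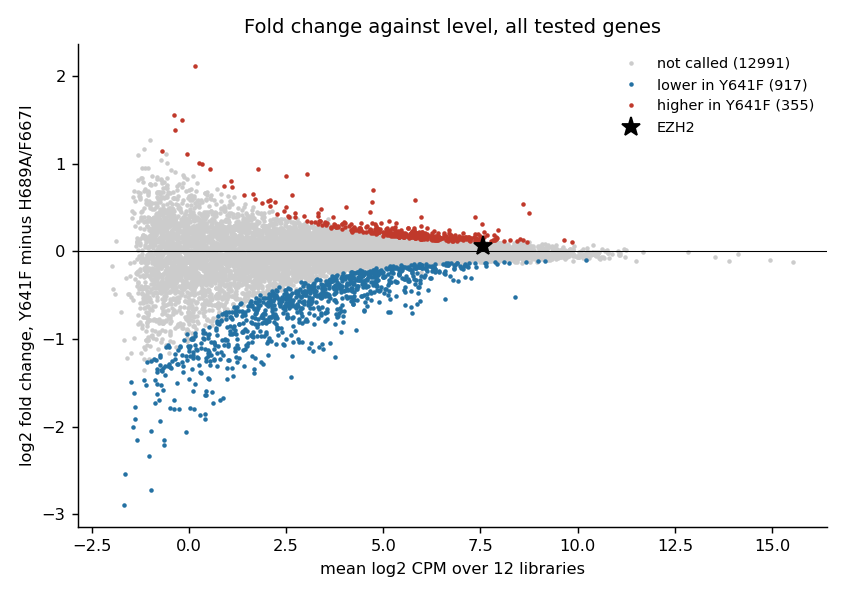
Log2 fold change of EZH2 Y641F minus H689A/F667I (vertical) against mean log2 CPM over 12 libraries (horizontal), 1 point per tested gene, with the 917 lower genes in blue, the 355 higher genes in red and EZH2 as a star. The blue points reach further from 0 and lie at lower levels than the red ones, and EZH2 lies close to the zero line.

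The count of lower genes held better than that of higher genes when libraries were left out. In all 19 alternatives run, those without 1 of the 6 libraries included, it stayed within 1.5 times of 917. The number of higher genes was 222 without Y641F replicate 3, 154 without LOF replicate 1 and 223 without LOF replicate 2, and 485 without Y641F replicate 2. Without Y641F replicate 1, the library that stood apart by correlation, 1038 genes were lower and 341 higher. Among the gene lists that follow, counts of 0 or 1 moved by at most 1 without 1 library, with 4 exceptions given beside them. Removing each library's trend with GC content gave 1047 lower and 223 higher genes, 82.4% lower.

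Among genes whose log2 CPM averaged at least 1, the largest decrease was in ADCYAP1R1, which encodes the receptor for the neuropeptide PACAP. It was at 3.35, 4.28 and 3.78 CPM in Y641F and 10.5, 8.48 and 11.9 CPM in the LOF mutant, with every Y641F library below every LOF library (log2 difference -1.43 ± 0.138 SE, adjusted p = 2.5e-09, edgeR). IRF8, a transcription factor of the interferon regulatory family best known from myeloid and B cells, was at 2.62, 2.42 and 1.96 CPM against 7.85, 5.07 and 5.399 CPM (-1.39 ± 0.182 SE, adjusted p = 1.16e-06). CHRDL1, a secreted antagonist of BMP ligands, was at 2.95, 2.36 and 2.03 CPM against 6.06, 5.399 and 6.42 CPM (-1.28 ± 0.1602 SE). The rule that named the largest changes, and the called members of the lists below, required no overlap between the lines. The separation of genes named by that rule therefore follows from their choice and is no added evidence. The other members of the 8 largest decreases were STAC, an adaptor of voltage-gated calcium channels (-1.42), the synaptotagmin SYT14 (-1.34), the arachidonic acid epoxygenase CYP2J2 (-1.33), the sodium-proton exchanger SLC9A2 (-1.30) and amphiphysin, AMPH, of synaptic vesicle endocytosis (-1.27). All 8 were called under each of the 19 alternatives run, those without 1 library included.

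Among the 8 largest increases, EMILIN2, an elastin-associated matrix glycoprotein, was at 39.96, 35.9 and 35.04 CPM in Y641F and 21.9, 24.04 and 22.1 CPM in the LOF mutant (log2 difference 0.70 ± 0.0744 SE, adjusted p = 1.53e-08, edgeR). COL3A1, the chain of fibrillar collagen III, was at 11.6, 7.49 and 7.42 CPM against 4.19, 4.99 and 5.43 CPM (0.86 ± 0.156 SE), and its highest value was in Y641F replicate 1. Of the other fibroblast markers COL1A1, LUM, PDGFRA and PDGFRB, which were in the table, none was called, the whole list summed to 17.7 to 27.4 CPM in Y641F and 15.5 to 19.1 CPM in the LOF mutant, and DCN, THY1 and COL1A2 were not in the table. Zinc finger genes of chromosome 19 supplied 3 of the 8. ZNF737 was at 3.97, 4.39 and 4.73 CPM against 3.08, 1.86 and 1.86 CPM (0.94 ± 0.176 SE), ZNF681 differed by 0.64 ± 0.127 (SE) and ZNF808 by 0.73 ± 0.205 (SE). The remaining 3, LOC100133315 (0.80), PPAPDC3 (0.66) and PRSS30P (0.65), were less secure. PRSS30P lost its call in 9 of 19 alternatives (adjusted p up to 0.216) and PPAPDC3 in 5 (up to 0.193), in each case without Y641F replicate 1 or 2 or LOF replicate 3 among others. ZNF808 lost it without Y641F replicate 2 or LOF replicate 1 or 3 (up to 0.0736) and LOC100133315 without replicate 2 of either line (up to 0.0772).

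**Figure D3:**
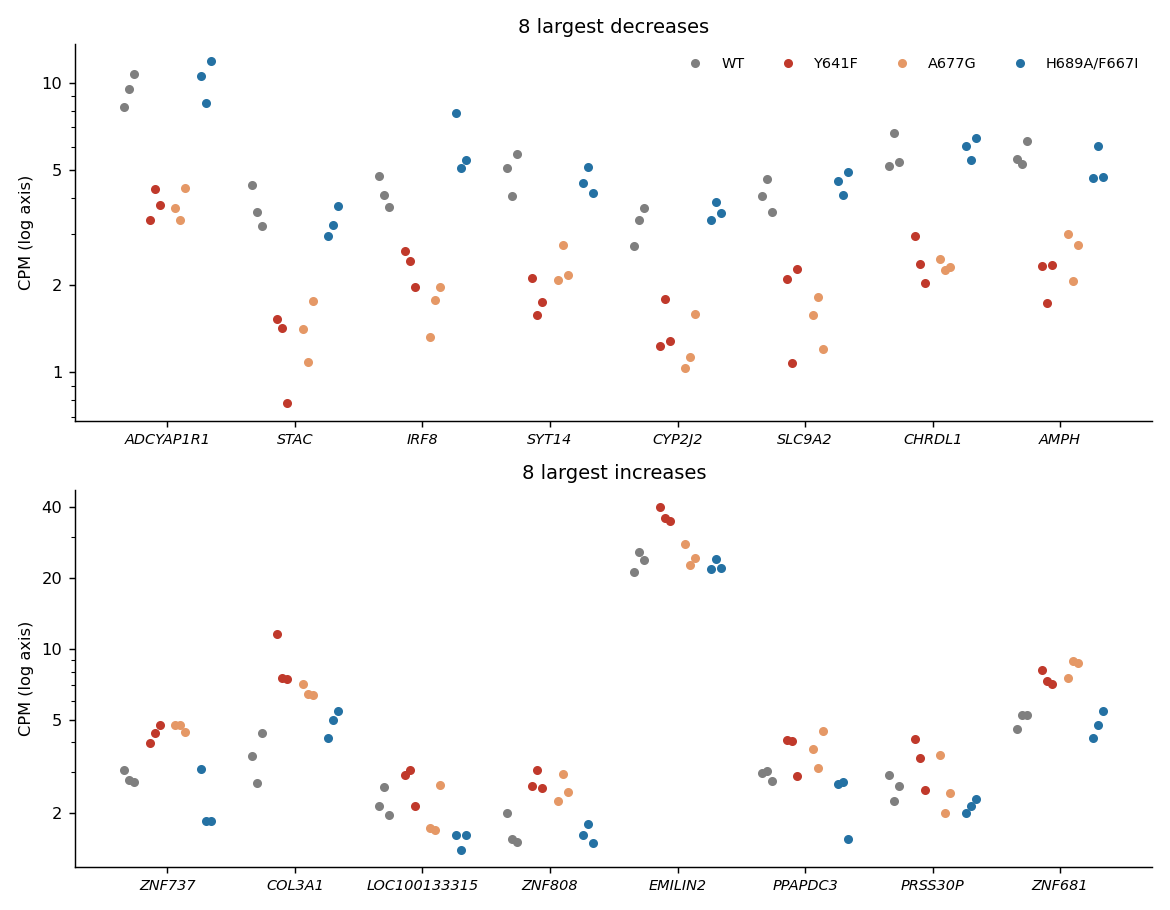
CPM (log axis) of the 8 largest decreases (top) and 8 largest increases (bottom) among called genes that averaged at least 1 log2 CPM and whose Y641F and H689A/F667I libraries did not overlap, 1 point per library of each of the 4 lines. In the top panel the Y641F and A677G points lie below the WT and H689A/F667I points at every gene, while in the bottom panel A677G does not lie with Y641F at every gene. At EMILIN2 its libraries are at 22.8 to 27.9 CPM and all Y641F libraries at 35.0 CPM or above. At LOC100133315 and PRSS30P the log2 difference of A677G minus WT was -0.16 and 0.051, not called.

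The upstream sequences of 3 of the largest decreases and 2 of the largest increases are given. They were taken in order of size among genes with a usable RefSeq promoter, not by CG content, and hold 2 to 28 CG. Each is the 250 bases before the RefSeq start, in the direction of transcription (GRCh38.p14), with each CG dinucleotide, the usual site of DNA methylation, in capitals. The sequences lie at chr7:31052058-31052307 (plus strand, 21 CG), chr3:36380254-36380503 (plus, 28), chr16:85902580-85902829 (plus, 2), chr19:20565782-20566031 (minus, 7) and chr19:52527418-52527667 (plus, 24). The IRF8 window lies inside the span that GENCODE gives the gene (chr16:85899116-85922606). Its 2 CG therefore do not describe the sequence before the GENCODE start of IRF8.
ADCYAP1R1: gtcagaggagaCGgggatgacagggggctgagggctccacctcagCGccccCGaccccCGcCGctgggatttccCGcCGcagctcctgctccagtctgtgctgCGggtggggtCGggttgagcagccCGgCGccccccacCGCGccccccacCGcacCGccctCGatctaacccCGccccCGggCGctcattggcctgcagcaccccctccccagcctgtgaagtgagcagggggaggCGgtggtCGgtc
STAC: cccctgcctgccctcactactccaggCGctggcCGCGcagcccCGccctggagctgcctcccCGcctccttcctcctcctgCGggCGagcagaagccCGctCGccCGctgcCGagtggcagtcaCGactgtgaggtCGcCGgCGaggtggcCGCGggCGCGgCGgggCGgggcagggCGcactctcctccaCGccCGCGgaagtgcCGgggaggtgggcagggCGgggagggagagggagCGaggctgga
IRF8: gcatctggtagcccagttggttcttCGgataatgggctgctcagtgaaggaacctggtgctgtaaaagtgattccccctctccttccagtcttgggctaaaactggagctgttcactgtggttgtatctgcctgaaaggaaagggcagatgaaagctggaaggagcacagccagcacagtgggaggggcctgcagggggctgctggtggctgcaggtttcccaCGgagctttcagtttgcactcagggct
ZNF737: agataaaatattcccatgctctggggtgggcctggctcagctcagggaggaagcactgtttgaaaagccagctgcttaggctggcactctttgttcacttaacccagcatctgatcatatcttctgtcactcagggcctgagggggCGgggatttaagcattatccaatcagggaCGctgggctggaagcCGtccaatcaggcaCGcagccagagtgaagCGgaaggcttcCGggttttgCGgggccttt
ZNF808: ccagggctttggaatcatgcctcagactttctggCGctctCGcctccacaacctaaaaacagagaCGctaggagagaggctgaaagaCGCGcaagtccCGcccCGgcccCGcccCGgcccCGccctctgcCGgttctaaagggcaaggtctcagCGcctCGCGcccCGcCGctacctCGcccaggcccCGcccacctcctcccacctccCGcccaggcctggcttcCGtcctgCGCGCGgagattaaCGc

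Over all genes with a RefSeq promoter in the table used, the median CG count did not differ between the sets. It was 21 CG per 250 bases in the 717 matched lower genes, the 287 matched higher genes and all 11028 matched genes tested, at a GC content of 66.8%, 66% and 65.2%. The median ratio of observed to expected CG, which takes GC content into account, was 0.764 in the lower genes, below the 0.831 of the higher genes and the 0.824 of all genes. The TATA box letters TATAAA, on either strand, were in 7.39% of the lower, 3.14% of the higher and 5.23% of all promoters. GGGCGG, the core of a GC box, was in 65.4%, 73.2% and 67.8%, and GAGAG in 57%, 58.9% and 54.8%. Such a match is only a run of letters in this window. In gene structure, both sets stood on longer genes. The median gene span was 66.2 kb for the lower and 69.1 kb for the higher genes, against 33 kb over all tested genes that could be matched to GENCODE. The median transcript GC content was 47.4% for the lower, 44.1% for the higher and 47.9% for all genes. Chromosome medians lay between -0.024 and 0.0224 on the log2 scale, and the share of lower genes was highest on X (10.4%) and chromosome 18 (10.1%) and lowest on chromosome 19 (1.89%).

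Here and below, fell and rose mean lower and higher in Y641F than in the LOF mutant, whichever line differs from EZH2 WT. Of the 14 PRC2 subunits tested, 1 fell and 0 rose, with a median log2 difference of 0.0357. The share that fell, 7.14%, was near the 6.43% over all genes tested. The one that fell was C17orf96 (EPOP), an accessory subunit that links the complex to elongin. It was at 29.03, 25.3 and 27.2 CPM in Y641F and 38.9, 35.3 and 38.98 CPM in the LOF mutant, without overlap (-0.47 ± 0.0633 SE, adjusted p = 1.78e-06, edgeR). Of 24 subunits of PRC1, which reads the mark and ubiquitinates histone H2A, PCGF5 alone fell, from 62.03 ± 1.88 CPM in the LOF mutant to 48.02 ± 3.08 CPM in Y641F (SD, n = 3 each; -0.37 ± 0.0509 SE). The share of PRC1 subunits that fell, 4.17%, was also near that over all genes. The calls of C17orf96 and PCGF5 held under all 19 alternatives. All 13 enzymes whose activity opposes H3K27 methylation had log2 differences above 0 (median 0.0958), but only 2 passed, the H3K36 methyltransferases WHSC1 (0.12 ± 0.0352 SE) and WHSC1L1 (0.13 ± 0.0412 SE). These are small differences, and neither passed without Y641F replicate 3 (adjusted p = 0.124 and 0.153) or LOF replicate 1 (0.0736 and 0.152) or 3 (0.116 and 0.0883), nor WHSC1L1 without Y641F replicate 2 (0.0555) or LOF replicate 2 (0.0665). The H3K27 demethylases KDM6A and KDM6B did not pass, with log2 differences of 0.0472 ± 0.0503 and 0.32 ± 0.153 (SE).

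Nearly all of the 108 genes that the study lists as repressed by GOF EZH2 were lower in Y641F than in the LOF mutant. Of the 108, 96 fell, 0 rose and all had a log2 difference below 0 (median -0.69). The list was drawn up on libraries that include these Y641F samples, so the count is not independent evidence of its direction. Its members with the largest differences were FGFBP1, a secreted carrier of fibroblast growth factors, the muscle and craniofacial cofactor VGLL2 and the receptor-type phosphatase PTPRZ1 of glial cells. VGLL2 was at 0.523, 0.473 and 0.426 CPM in Y641F and 2.22, 1.55 and 2.203 CPM in the LOF mutant (-2.06 ± 0.294 SE). PTPRZ1 was at 0.808, 0.6303 and 0.757 CPM against 2.62, 2.801 and 2.54 CPM (-1.85 ± 0.248 SE), and FGFBP1 differed by -2.34 ± 0.462 (SE) with fewer than 1.2 CPM in any of these libraries.

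**Figure D4:**
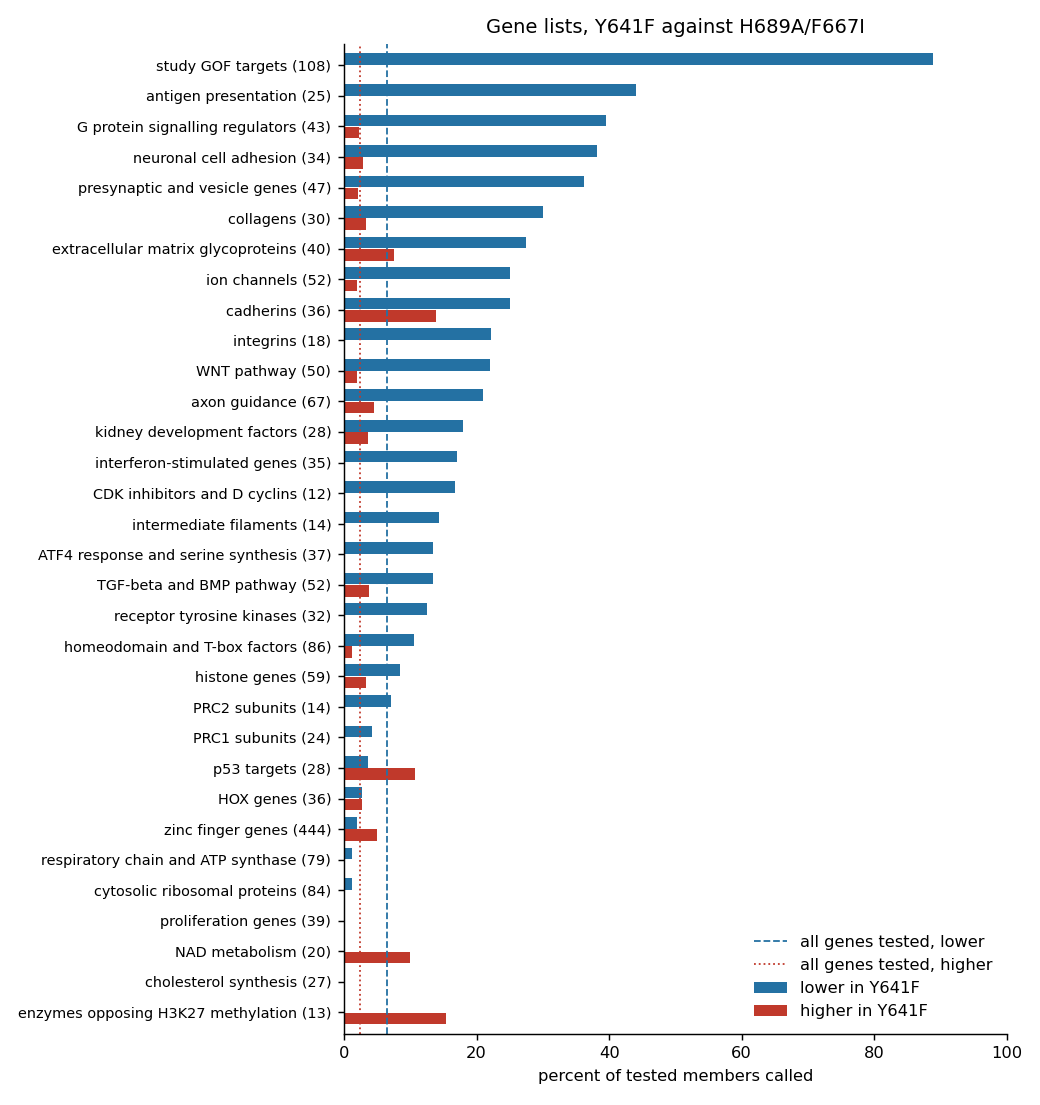
Percent of the tested members of each gene list that were called lower (blue bars) or higher (red bars) in EZH2 Y641F than in H689A/F667I, with the number of members tested in brackets and the percentages over all genes tested (6.43 and 2.49) as a dashed and a dotted line. After the list of GOF targets chosen by the study, antigen presentation, G protein signalling, neuronal adhesion and presynaptic genes have the highest percentages of lower members, and the proliferation and cholesterol synthesis lists have no called member.

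Genes of antigen presentation had the highest share of lower members among the other lists. Of 25 tested, 11 fell and 0 rose (median -0.25, against 0.00188 over all genes), 9 of them in the class I pathway that displays peptides of the cell's own proteins and 2 in class II. HLA-B, a classical class I heavy chain, was at 42.3, 40.6 and 39.8 CPM in Y641F and 66.8, 63.4 and 69.1 CPM in the LOF mutant (-0.70 ± 0.0513 SE, adjusted p = 4.99e-12, edgeR). Every Y641F library was thus well below every LOF library. TAP1, a subunit of the peptide transporter, was at 10.9 ± 1.39 against 16.2 ± 0.4101 CPM (SD, n = 3 each) and HLA-C fell by a log2 difference of -0.29 ± 0.0467 (SE). HLA-B, HLA-C and TAP1 were singled out after their values were seen. The rule for named genes gave CD1D, which presents lipids (-1.50 ± 0.338 SE), the non-classical HLA-F (-0.79 ± 0.162 SE) and the trimming peptidase ERAP2 (-0.82 ± 0.238 SE), of which ERAP2 lost its call without Y641F replicate 2 or 3 or LOF replicate 1 or 3 (adjusted p up to 0.118). HLA genes share long stretches of sequence, so reads may be split between them and single values are uncertain. The list held 7 lower genes without Y641F replicate 3, 6 without LOF replicate 1 and 7 without LOF replicate 2, and 7 with library totals in place of TMM.

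Of 35 interferon-stimulated genes and their regulators 6 fell and 0 rose, with a median of -0.0124. The RNA sensor IFIH1 was at 0.475, 0.263 and 0.284 CPM in Y641F and 1.43, 1.02 and 1.12 CPM in the LOF mutant (-1.79 ± 0.3702 SE, adjusted p = 0.00103, edgeR). SAMD9, a restriction factor, differed by -1.64 ± 0.285 (SE) and OAS3, which makes the activator of RNase L, by -1.44 ± 0.265 (SE). These genes were chosen for ranges without overlap between the lines, and most of the list did not pass the test.

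Regulators and receptors of G protein signalling had 39.5% lower members. Of 43 tested, 17 fell and 1 rose (median -0.35), and 11 of the 17 were among 24 receptors. EDNRB, the endothelin B receptor, was at 4.802, 3.18 and 3.26 CPM in Y641F and 8.44, 7.39 and 7.63 CPM in the LOF mutant (-1.06 ± 0.147 SE, adjusted p = 3.08e-06, edgeR). RGS7, which speeds GTP hydrolysis by G alpha subunits, and the serotonin receptor HTR7 differed by -1.29 ± 0.338 and -1.08 ± 0.319 (SE). Both were low, at 0.464 and 0.663 CPM in Y641F, and lost their calls without some libraries: RGS7 without replicate 1 of either line (adjusted p = 0.0585 and 0.052) and HTR7 without replicate 2 of either line or LOF replicate 3 (up to 0.119).

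Presynaptic and vesicle genes had 17 lower and 1 higher of 47 tested (median -0.30), and the vesicle proteins held 14 of the 17. SYT9, a calcium sensor of vesicle fusion, was at 0.713, 0.945 and 0.662 CPM in Y641F and 2.27, 2.78 and 2.42 CPM in the LOF mutant (-1.69 ± 0.257 SE, adjusted p = 1.5e-05, edgeR). SYT13 differed by -1.64 ± 0.275 (SE) and RIMS1, a scaffold of the release site, by -2.15 ± 0.3901 (SE). Like SYT14 and AMPH above, these genes were chosen for having no overlap between the lines, and all were below 7 CPM. Neuronal adhesion genes had 13 lower and 1 higher of 34 (median -0.0729), of which 8 lower were among the 12 members of the immunoglobulin family (median -0.44). LSAMP, a limbic cell adhesion molecule, was at 1.52, 0.998 and 0.568 CPM against 2.54, 2.19 and 2.61 CPM (-1.24 ± 0.264 SE), the leucine-rich repeat protein LRRN2 by -1.22 ± 0.194 (SE) and neurofascin, NFASC, by -1.12 ± 0.292 (SE), which was not called without Y641F replicate 3 (adjusted p = 0.0901). A more abundant member, chosen after its values were seen, was CNTNAP2, of the axon membrane beside the node of Ranvier, at 28.4 ± 0.943 against 45.9 ± 1.68 CPM (SD, n = 3 each).

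Axon guidance genes had 14 lower and 3 higher of 67 (median -0.0513), with 8 lower without Y641F replicate 3. SPON1, a secreted F-spondin of the floor plate, was at 10.7, 8.85 and 8.37 CPM in Y641F and 20.5, 21.6 and 22.5 CPM in the LOF mutant, below the LOF range in each library (-1.21 ± 0.0893 SE, adjusted p = 4.99e-12, edgeR). Its difference had one of the smallest adjusted p-values in the comparison. SLIT3 differed by -1.19 ± 0.269 (SE) and ephrin A2, EFNA2, by -0.83 ± 0.203 (SE), the last not called without Y641F replicate 3 (adjusted p = 0.0612). The paralogue SLIT2, named after its values were seen, was higher in Y641F, at 239 ± 18.1 against 210.3 ± 12.6 CPM (SD, n = 3 each), but not called without Y641F replicate 3 or LOF replicate 1 (adjusted p = 0.114 and 0.105).

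Ion channel genes had 13 lower and 1 higher of 52 (median -0.33). The cardiac and epithelial potassium channel KCNQ1 differed by -2.05 ± 0.427 (SE), the calcium channel subunit CACNA1C by -1.59 ± 0.329 (SE) and the potassium channel KCND2 by -1.33 ± 0.369 (SE), each below 2.1 CPM in all 6 libraries. KCND2 was not called without replicate 2 of either line (adjusted p = 0.055 and 0.0895). Among the intermediate filaments 2 of 14 fell. NEFL, the light neurofilament chain, was at 83.8, 75.6 and 77.5 CPM in Y641F and 118, 109.8 and 119 CPM in the LOF mutant (-0.55 ± 0.0462 SE, adjusted p = 8.69e-11). NEFM, the medium chain, differed by -0.20 ± 0.0629 (SE) with overlapping replicates. It lost its call in 9 of 19 alternatives (adjusted p up to 0.356), among them those without any of the 3 LOF replicates or Y641F replicate 2 or 3. At NEFL and NEFM, EZH2 WT was above both lines, with means of 133 and 185 CPM. WT minus LOF was 0.21 and 0.35 on the log2 scale (adjusted p = 0.028 and 0.00304, edgeR), and Y641F minus WT was -0.75 and -0.55.

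Extracellular matrix and adhesion genes moved in both directions. Of 30 collagens 9 fell and 1 rose (median -0.22). The decreases were in COL21A1 (-1.13 ± 0.3098 SE), COL4A4 of the basement membrane (-0.97 ± 0.286 SE) and 7 others, and the increase was COL3A1. COL21A1 was not called without Y641F replicate 2 or 3 or LOF replicate 2 (adjusted p up to 0.104), nor COL4A4 without Y641F replicate 1 or LOF replicate 1 or 3 (up to 0.119). Of 40 matrix glycoproteins 11 fell and 3 rose, with 17 lower without Y641F replicate 1 and 7 without Y641F replicate 2. EFEMP1, a fibulin, was at 4.897, 4.596 and 3.59 CPM in Y641F and 10.4, 8.12 and 11.5 CPM in the LOF mutant (-1.19 ± 0.136 SE, adjusted p = 6.73e-08, edgeR), and EMILIN2 was among those that rose. SPOCK1 and SVEP1 differed by -1.62 ± 0.368 and -0.92 ± 0.201 (SE).

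All integrin changes were in alpha chains, 4 of 12 alpha and 0 of 6 beta chains, and all were decreases. ITGA4, a receptor for fibronectin and VCAM1, was at 12.8, 10.7 and 11.5 CPM in Y641F and 19.9, 18.9 and 19.6 CPM in the LOF mutant (-0.74 ± 0.0873 SE, adjusted p = 1.73e-07, edgeR). The laminin receptor chain ITGA6 differed by -0.45 ± 0.0614 (SE) and the collagen receptor chain ITGA2 by -0.43 ± 0.09201 (SE). Cadherins outside the clustered protocadherins split into 9 lower and 5 higher of 36, with 5 lower without Y641F replicate 3, 4 without LOF replicate 1 and 3 higher without LOF replicate 1. CDH23 (-0.95 ± 0.226 SE) and the giant cadherins DCHS2 (-0.72 ± 0.219 SE) and DCHS1 (-0.69 ± 0.181 SE) fell, but all 3 lost their calls without LOF replicate 1 (adjusted p = 0.0504, 0.103 and 0.056), DCHS1 also without Y641F replicate 3 (0.0951) and DCHS2 without Y641F replicate 2 or 3 or LOF replicate 3 (up to 0.109). PCDH10, chosen after its values were seen, rose from 46.3, 43.8 and 46.7 CPM in the LOF mutant to 70.7, 65.1 and 69.02 CPM in Y641F, without overlap (0.58 ± 0.0471 SE, adjusted p = 3e-11). None of the 3 clustered protocadherins tested passed, and PCDHGC3 differed by 0.12 ± 0.0905 (SE).

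In the WNT pathway 11 of 50 fell and 1 rose (median -0.0919), 4 of the 11 being secreted inhibitors, of which 10 were tested. LGR5, the R-spondin receptor of epithelial stem cells, was at 5.18, 3.62 and 3.97 CPM in Y641F and 7.52, 7.79 and 8.75 CPM in the LOF mutant (-0.91 ± 0.1297 SE, adjusted p = 5.14e-06, edgeR). The inhibitor DKK1 differed by -1.21 ± 0.295 (SE) and the receptor FZD10 by -0.75 ± 0.152 (SE). The ligand WNT16, one of the genes named by the study, differed by -1.78 ± 0.4899 (SE) at below 1 CPM with overlapping replicates, and was not called without Y641F replicate 2 or 3 or LOF replicate 1 (adjusted p up to 0.174). In the TGF-beta and BMP pathway 7 of 52 fell and 2 rose (median -0.0566). Beside CHRDL1 these included the ligands BMP3 (-1.80 ± 0.352 SE) and GDF10 (-1.35 ± 0.344 SE), both near or below 1.7 CPM.

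Of 32 receptor tyrosine kinases 4 fell and 0 rose (median -0.0815). EGFR was at 5.68, 4.15 and 4.800 CPM in Y641F and 8.82, 8.33 and 7.35 CPM in the LOF mutant, without overlap (-0.74 ± 0.124 SE, adjusted p = 6.03e-05, edgeR). FLT1, a receptor for VEGF, was at 11.5 ± 0.503 against 18.5 ± 1.23 CPM (SD, n = 3 each), and the WNT5A receptor ROR1 differed by -0.43 ± 0.0971 (SE). Kidney development factors had 5 lower and 1 higher of 28. GFRA1, the GDNF co-receptor of ureteric bud outgrowth, differed by -0.70 ± 0.137 (SE), the collecting duct factor TFCP2L1 by -0.64 ± 0.1301 (SE) and WNT11 by -0.55 ± 0.142 (SE), the last not called without LOF replicate 1 (adjusted p = 0.0949).

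HOX genes, classical PRC2 targets, were near the background, with 1 lower and 1 higher of 36 (median -0.0346). HOXA13 was at 37.1, 38.6 and 41.7 CPM in Y641F and 27.95, 30.3 and 34.1 CPM in the LOF mutant (0.35 ± 0.0643 SE, adjusted p = 0.000236, edgeR). Of 86 other homeodomain and T-box factors 9 fell and 1 rose (median -0.0189), and the mesenchymal factors PRRX1 (-1.29 ± 0.243 SE) and PRRX2 (-1.21 ± 0.282 SE) and the homeobox gene GBX1 (-1.24 ± 0.234 SE) had the largest differences. None of the 8 T-box factors was called.

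Zinc finger genes with ZNF symbols, most of which encode DNA-binding repressors, had more higher than lower members in the fit over all libraries, but not under every alternative. Of 444 tested, 22 rose and 9 fell, and 292 had a log2 difference above 0 (median 0.0459). The largest difference was in ZNF682, at 0.998, 0.893 and 0.899 CPM in Y641F and 0.271, 0.357 and 0.3103 CPM in the LOF mutant (1.56 ± 0.345 SE, adjusted p = 0.00203, edgeR). ZNF91, a repressor of SVA retrotransposons named after its values were seen, was at 17.98 ± 0.408 against 12.7 ± 0.383 CPM (SD, n = 3 each). Of those that fell, ZNF365 differed by -1.51 ± 0.278 (SE) and ZNF385B by -1.07 ± 0.2101 (SE). Without Y641F replicate 3 or LOF replicate 1, 2 or 3 the number that rose was 11, 9, 14 and 14. With upper-quartile factors 12 rose and 11 fell, with only the 6 compared libraries 9 rose and 7 fell, with limma 14 rose and 7 fell, and with the GC trend removed the order turned, with 10 that rose and 13 that fell. These genes arose by tandem duplication and share sequence, so reads may be split between neighbours and single values are uncertain.

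Proliferation and housekeeping lists held few or no called genes. None of 39 cell cycle genes passed the test, with log2 differences between -0.10 and 0.16, and the topoisomerase TOP2A was at 658 ± 19.3 CPM in Y641F and 632 ± 4.27 CPM in the LOF mutant (SD, n = 3 each), though 3 rose and 1 fell without Y641F replicate 2 and 1 rose without Y641F replicate 1. DESeq2, the robust fit and library totals each called 2 as higher, and upper-quartile factors 1 as lower. Of 84 cytosolic ribosomal proteins 1 fell, RPL22L1 (-0.18 ± 0.0504 SE), and of 79 respiratory chain and ATP synthase genes 1 fell, NDUFS3 (-0.17 ± 0.05004 SE). RPL22L1 was not called without LOF replicate 1 or 2 (adjusted p up to 0.106), and NDUFS3 lost its call in 6 of 19 alternatives (up to 0.17), among them those without Y641F replicate 1 or 3 or LOF replicate 1 or 2. Without Y641F replicate 2, 5 of the ribosomal and 4 of the respiratory genes were lower. None of 27 cholesterol synthesis genes passed, and 2 were lower without Y641F replicate 1. Among 12 CDK inhibitors and D cyclins 2 fell. RPRM, which holds cells in G2, was at 0.856, 0.735 and 0.5202 CPM in Y641F and 1.57, 1.88 and 2.05 CPM in the LOF mutant (-1.38 ± 0.276 SE, adjusted p = 0.000719, edgeR). CCND1, cyclin D1, was at 77.5 ± 2.37 against 90.3 ± 0.405 CPM (SD, n = 3 each). The mean of EZH2 WT was 79.6 CPM, nearer to Y641F than to the LOF mutant.

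Of 28 p53 targets 3 rose and 1 fell (median 0.12). PLK2 fell (-0.62 ± 0.124 SE), while the apoptosis gene BBC3 (0.35 ± 0.105 SE) and TP53INP1 (0.34 ± 0.102 SE) rose in the fit over all libraries. BBC3 was not called without Y641F replicate 2 or LOF replicate 1 or 2 (adjusted p up to 0.202), nor TP53INP1 without Y641F replicate 1 or 3 or LOF replicate 1 or 2 (up to 0.107), and the list held 9 higher genes without Y641F replicate 1, 1 without Y641F replicate 3 or LOF replicate 1 and 0 without LOF replicate 2. With the GC trend removed and a replicate block 1 rose and 3 fell, and with only the 6 compared libraries 0 rose and 1 fell. Of 37 genes of the ATF4 response and serine synthesis 5 fell and 0 rose (median -0.0625), and 1 fell without Y641F replicate 3 or LOF replicate 1 and 3 without LOF replicate 2 or 3, while 2 fell with library totals or with only the 6 compared libraries. SLC7A11, the cystine transporter, differed by -0.19 ± 0.0471 (SE), the arginine transporter SLC7A3 by -0.52 ± 0.143 (SE) and asparagine synthetase, ASNS, by -0.13 ± 0.0433 (SE). EZH2 WT had less SLC7A11 than either line, at 51.9 CPM against 56.7 in Y641F and 64.7 in the LOF mutant. SLC7A3 lost its call without Y641F replicate 2 or 3 or LOF replicate 1 (adjusted p up to 0.114) and ASNS in 8 of 19 alternatives (up to 0.187), among them those without any single library but Y641F replicate 1. Of 20 genes of NAD metabolism 2 rose and 0 fell. QPRT, which makes NAD from the kynurenine pathway, was at 55.1, 44.3 and 39.4 CPM in Y641F and 37.7, 34.9 and 38.05 CPM in the LOF mutant (0.33 ± 0.0746 SE), highest in Y641F replicate 1, and was not called without it (adjusted p = 0.0689). NNT, the mitochondrial transhydrogenase, differed by 0.17 ± 0.04296 (SE) and was not called without LOF replicate 1 (adjusted p = 0.0951). Of 59 histone genes 5 fell and 2 rose, 8.47% and 3.39%, near the 6.43% and 2.49% over all genes tested. The number that fell was 18 without Y641F replicate 2 and 0 without Y641F replicate 3 or LOF replicate 1. It was 2 without LOF replicate 2 or with only the 6 compared libraries, and 3 without LOF replicate 3. HIST1H3I (1.38 ± 0.351 SE), HIST1H2AB (-0.17 ± 0.04501 SE) and H2AFY2 (-0.16 ± 0.0444 SE) had the largest called differences without overlap. At HIST1H3I the LOF mutant was at 0.346 CPM, against 0.898 in Y641F and 1.04 in EZH2 WT. HIST1H3I was not called without LOF replicate 2 (adjusted p = 0.0609), HIST1H2AB without Y641F replicate 3 or LOF replicate 1 (up to 0.164) and H2AFY2 without those or LOF replicate 2 (up to 0.0794). Histone genes have near-identical copies and mostly lack poly(A) tails, so their counts are uncertain.

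Of the other genes named by the study, CA2, a carbonic anhydrase, was at 112, 101 and 94.2 CPM in Y641F and 138, 123 and 124 CPM in the LOF mutant (-0.33 ± 0.0536 SE, adjusted p = 4.01e-05, edgeR). BASP1, a growth cone protein, was at 14.6 ± 1.81 against 22.1 ± 0.966 CPM (SD, n = 3 each; -0.60 ± 0.0804 SE). The groups were separate at both. PRNP (0.0435 ± 0.0588 SE), FER (0.0893 ± 0.0514 SE) and GPC3 (0.00901 ± 0.0569 SE) did not pass and overlapped between the lines, though FER passed without Y641F replicate 2 (adjusted p = 0.0373). The study names PRNP for both GOF mutants, GPC3 for Y641F and FER for the LOF mutant, which is not this comparison. At PRNP, FER and GPC3, Y641F minus WT was 0.21, 0.28 and 0.24 on the log2 scale. WT minus LOF was -0.17, -0.19 and -0.23, not called.

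The other lines of the series were set beside these differences. At the 917 lower genes the median log2 difference from the LOF mutant was -0.55 in Y641F, -0.54 in A677G and -0.0725 in EZH2 WT, and at the 355 higher genes it was 0.20, 0.15 and 0.0629. These comparisons share the LOF libraries and, for Y641F, the libraries that chose the genes. A comparison in other samples came from fitting A677G against WT alone and Y641F against LOF alone, which share no library. Of 773 genes lower in Y641F in its own fit, 570 (73.7%) were lower and 3 higher in A677G than in WT, where 7.86% of all genes were lower, and the 570 are 50.8% of the genes lower in A677G. Their median log2 difference in A677G minus WT was -0.50, against 0.00454 over all genes, and 758 were below 0. Of 187 genes higher in Y641F, 55 (29.4%) were higher and 6 lower in A677G than in WT, where 3.48% of all genes were higher, with a median of 0.12, and the 55 are 11.1% of those higher in A677G. Without Y641F replicate 3 or LOF replicate 1, 2 or 3 in turn the 55 became 31, 29, 30 and 33. Across the 14263 genes (genes are no independent replicates) these separate comparisons correlated with r = 0.62 by Pearson and rho = 0.42 by Spearman.

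**Figure D5:**
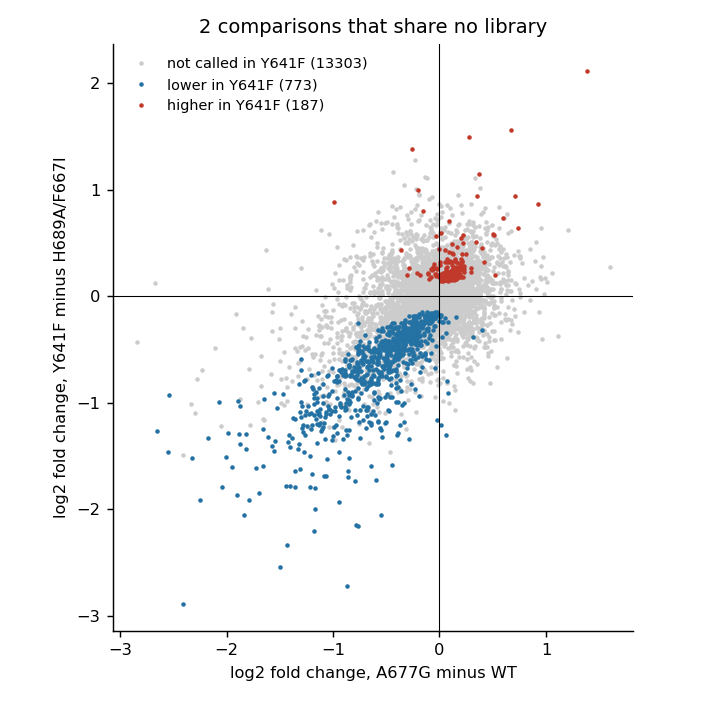
Log2 fold change of Y641F minus H689A/F667I (vertical) against that of A677G minus WT (horizontal), each from a fit of its own 6 libraries, 1 point per gene, with the 773 genes lower in Y641F in blue and the 187 higher in red. Most blue points (758 of 773) lie left of 0, and the red points lie in a narrow band with 159 of 187 right of 0.

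Read the other way, the 1121 genes lower in A677G than in WT, a set chosen without the Y641F and LOF libraries, were lower in each Y641F library than in each LOF library. Their median log2 CPM relative to the mean of the 6 libraries was -0.0673, -0.26 and -0.24 in Y641F replicates 1 to 3 and 0.20, 0.18 and 0.22 in the LOF replicates. At these genes replicate 1 was the Y641F library nearest to the LOF libraries. The 497 genes higher in A677G than in WT were at 0.0223, 0.0397 and 0.0571 in Y641F and at -0.0373, -0.0407 and -0.0425 in the LOF mutant, so those libraries were also separate, by a smaller margin. Genes called in opposite directions in the separate fits were few, 3 of the 773 and 6 of the 187. The largest were CSNK1E, RNA45S5 and MAGEA1. CSNK1E, casein kinase 1 epsilon, was at 15.98, 10.5 and 6.34 CPM in Y641F and 3.17, 7.54 and 7.17 CPM in the LOF mutant, overlapping. It lost its call without replicate 1 of either line (adjusted p = 0.116 and 0.0975, edgeR) and with DESeq2 (0.157). The mean of CSNK1E in EZH2 WT was 12.4 CPM. On the log2 scale Y641F minus WT was -0.18 and A677G minus WT -0.99, both below 0, while WT minus LOF was 1.06 (adjusted p = 0.0121, edgeR). MAGEA1, a cancer-testis antigen, was lower in Y641F than in the LOF mutant (-0.38 ± 0.0867 SE) and higher in A677G than in WT (log2 difference 0.32). Its mean in EZH2 WT was 11.7 CPM, below Y641F at 13.1 and the LOF mutant at 17.0 CPM. RNA45S5 was higher in Y641F (0.44 ± 0.0901 SE) and lower in A677G than in WT (-0.36), and it was not called with DESeq2 (adjusted p = 0.0951) or the robust fit (0.199).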

How the data were processed

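The 12 libraries came from HEK293T lines carrying EZH2 WT, Y641F, A677G or H689A/F667I, 3 replicates a line. By the methods and the submitters' processing notes, TruSeq Stranded mRNA libraries were trimmed with Trim Galore 0.6.5, aligned to GRCh38 (hg38) with STAR 2.7.9a and quantified with Salmon 1.2.0. The deposited values are the authors' raw counts, whole numbers per symbol with no normalization. The step from transcript estimates to counts per symbol is not given in the sources used here. Totals per library set the precision, with 32137700 counts in the smallest of the 12 libraries.

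Genes at 0 in all replicates of any line were left out. The fit used edgeR 4.0.16 in R 4.3.3 (TMM factors, quasi-likelihood test, all 12 libraries, 1 coefficient per line), with Benjamini-Hochberg adjustment over all 14263 genes and a threshold of 0.05. The quasi-likelihood test stood in for edgeR's exact test, which the authors used. Differences are log2(Y641F) minus log2(LOF) with a standard error, and CPM are TMM-scaled. The members, gene lists and tests were chosen with earlier results of these data known. Genes named were EZH2, EZH1, EED and SUZ12, the 8 largest changes per direction that averaged at least 1 log2 CPM without overlap, up to 3 called members per list without overlap, or its most abundant member where none was called, 10 genes named by the study and 3 called in opposite directions in A677G. Some genes that the rule names are not reported here. Positions are from GENCODE for 13272 symbols by name and for 806 by a synonym in RefSeq, while 360 stayed unmatched. Replicates of a number did not deviate together across the lines (r = -0.041, 0.017 and -0.011), so the numbers do not pair the samples. The 19 alternatives were edgeR's exact test, a replicate block, a robust fit, DESeq2 1.42.0, limma 3.58.1 (voom), other scaling, filters and samples, a GC correction and thinned counts. The procedure was tested on simulated counts with known changes.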

Additional observations from a re-analysis of the deposited data

How the results depend on the processing

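The EZH2 log2 difference stayed between 0.0329 and 0.101 in all 19 alternatives and was called in none. The number of lower genes stayed within 1.5 times of 917 in all 19, with 1060 the highest, and 1038 the highest without 1 library. The number of higher genes moved from 355 to 187 with only the 6 compared libraries in the fit, to 223 with each library's GC trend removed and to 216 with that and a replicate block, and ranged from 154 to 485 without 1 library. Blocking on replicate number, which does not pair the samples, gave 937 lower and 355 higher genes. With edgeR's exact test 1036 were lower and 421 higher, and with DESeq2 949 and 426. The genes lower in both Y641F and A677G numbered 385 to 653 and those higher in both 29 to 73 without 1 library. Genes below about 1 CPM rest on few counts, and their differences have standard errors up to 0.497.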

Other observations

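The genes given here were chosen after their values were seen. KCTD12, an auxiliary subunit of GABA-B receptors, was at 284, 256 and 281 CPM in Y641F and 391, 397 and 388 CPM in the LOF mutant (-0.52 ± 0.0376 SE, adjusted p = 4.99e-12, edgeR). The progesterone receptor gene PGR was at 0.0951, 0.105 and 0.0473 CPM against 0.758, 0.509 and 0.621 CPM (-2.89 ± 0.497 SE), and CD44, the hyaluronan receptor, at 0.3804, 0.0525 and 0.0946 CPM against 1.52, 1.38 and 0.683 CPM (-2.73 ± 0.456 SE). Both were below the level set for named genes, and CD44 was highest among the Y641F libraries in replicate 1. In the other direction, the melatonin-related receptor GPR50 was at 2.12, 1.497 and 1.73 CPM against 0.216, 0.407 and 0.621 CPM (2.12 ± 0.327 SE).

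The immediate early gene JUN was at 242, 172 and 156 CPM in Y641F and 148, 143 and 144 CPM in the LOF mutant (0.39 ± 0.0758 SE, adjusted p = 0.000455, edgeR). Its Y641F values spread over a wider range than its LOF values, with replicate 1 the highest, and the gene was not called with DESeq2 (adjusted p = 0.0601) or the robust fit (0.148). PCDH17, a protocadherin like PCDH10, was at 32.5 ± 1.58 against 21.8 ± 2.44 CPM (SD, n = 3 each).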
